A study of Mus musculus with 14 samples.

Results

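Class I odorant receptors (ORs) were taken as the gene symbols Olfr543 to Olfr692 present in the expression tables of both experiments, which gave 118 of 51211 symbols, or 10.6% of the 1116 OR symbols. All 118 lay in 1 cluster on chromosome 7 (GRCm38, 102476579 to 105369355, a span of 2.89 Mb), 62 on the plus strand and 56 on the minus strand. The beta-globin gene Hbb-bs, at 103826534, split the cluster into 67 members on the proximal side and 51 on the distal side. GENCODE vM21 annotated 115 members as protein-coding genes, Olfr663 and Olfr664 as polymorphic pseudogenes and Olfr687 as a transcribed pseudogene. The median coding length of the 117 members with a coding sequence was 951 bases, whereas the length of all annotated exons ran from 936 to 8565 bases, because long non-coding exons were annotated for many members. Another 9 OR genes sit in the same cluster but carry other numbers (Olfr33, Olfr64 to Olfr69, Olfr78 and Olfr243) and were not counted as members. The remaining 989 OR symbols are called class II here.

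ORs are G-protein-coupled receptors of olfactory sensory neurons, and a mature neuron transcribes 1 allele of 1 OR gene. Class I receptors resemble the receptors of fish, are grouped in a single genomic cluster, and are expressed mostly in neurons of the dorsal zone of the epithelium. Several are known to respond to carboxylic acids. An OR signals through the G protein subunit encoded by Gnal, the adenylyl cyclase encoded by Adcy3 and the cyclic-nucleotide-gated channel encoded by Cnga2, Cnga4 and Cngb1.

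RNA was measured in the olfactory epithelium of 14 mice at postnatal day 5, in 2 experiments whose controls were different mice. In the Kir2.1 experiment, 3 mice that carried the OMP-IRES-tTA allele together with the transgene tetO-Kir2.1-IRES-tauLacZ were compared with 3 control mice that carried OMP-IRES-tTA heterozygously and no Kir2.1 transgene. Kir2.1 is a potassium channel that holds neurons near their resting potential, and the Omp locus drives it in mature sensory neurons, so the tTA allele was common to both groups. In the PEA experiment, 4 wild-type mice were exposed to 2-phenylethylamine (PEA), an aversive amine sensed by trace amine-associated receptors, from birth to day 5, and 4 wild-type mice were not exposed. The records give C57BL/6 as the background of every mouse, whereas the study describes the PEA-exposed pups used for this RNA sequencing as CD-1. The strain of the mice of the PEA experiment is therefore uncertain. The records also label the Kir2.1 group with a name used elsewhere for mice whose transgene had been switched off with doxycycline. Tissue was taken at day 5, and Kcnj2, which encodes Kir2.1, ran from 986 to 1274 in the control mice and from 17930 to 24190 in the Kir2.1 mice (which is a log2 fold change of 4.18 with an SE of 0.14, adjusted p = 0.000157 by limma). Nothing in the records says which mice shared a litter, and p-values measure the spread between these mice.

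The values are normalized counts, whose sum per mouse after scaling was between 33049111 and 34198478 in the Kir2.1 experiment and between 11476120 and 12467331 in the PEA experiment, so the depth of each library is unknown and no interval for counting error can be given. Levels are not compared between the experiments, whose libraries were made and scaled separately. Fold changes are differences of mean log2(normalized count + 1), which understates the change of low genes, and they carry the standard error (SE) of limma. A gene was tested where its mean over the mice of the experiment was at least 10. Near-identical receptors share reads, so their values are uncertain. The median member shared 5.585% of its 31-base words with other genes, and 41 of the 118 shared more than 10%. The highest share was 86.32%, of Olfr688, which shared more words with Olfr687 than with any other gene. Another gene overlapped 10 members on the same strand and 10 on the opposite strand.

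The sequences upstream of 4 members are shown because the comparisons below turn on their values. Olfr550 and Olfr659 were the members whose groups did not overlap in both experiments, Olfr641 was the member with the largest positive fold change in the Kir2.1 experiment, and Olfr544 has a known ligand. For all genes, the share without overlap in both experiments is not given. Each line gives the 250 bases before the RefSeq start (GRCm38.p6), 5′ to 3′ on the strand of the gene. The windows are chr7:102578219-102578468 (plus strand) for Olfr550, chr7:104670454-104670703 (plus) for Olfr659, chr7:104039548-104039797 (plus) for Olfr641 and chr7:102488308-102488557 (minus) for Olfr544. Capitals mark matches to 3 motifs, each searched on both strands. The homeodomain core searched was TAATTA, the same on either strand. Its variant was searched as TAATTG, which reads CAATTA on the other strand. The palindrome of the EBF family was searched as CCCNNGGG.
Olfr550: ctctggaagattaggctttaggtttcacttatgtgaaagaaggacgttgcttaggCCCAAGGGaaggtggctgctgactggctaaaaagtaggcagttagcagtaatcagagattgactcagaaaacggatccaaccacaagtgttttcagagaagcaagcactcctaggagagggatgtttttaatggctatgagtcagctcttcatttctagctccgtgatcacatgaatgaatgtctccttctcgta
Olfr659: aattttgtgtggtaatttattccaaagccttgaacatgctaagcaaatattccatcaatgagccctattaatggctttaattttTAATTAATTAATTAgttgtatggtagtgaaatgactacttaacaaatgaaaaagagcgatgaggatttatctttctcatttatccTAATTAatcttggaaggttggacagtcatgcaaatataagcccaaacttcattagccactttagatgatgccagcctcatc
Olfr641: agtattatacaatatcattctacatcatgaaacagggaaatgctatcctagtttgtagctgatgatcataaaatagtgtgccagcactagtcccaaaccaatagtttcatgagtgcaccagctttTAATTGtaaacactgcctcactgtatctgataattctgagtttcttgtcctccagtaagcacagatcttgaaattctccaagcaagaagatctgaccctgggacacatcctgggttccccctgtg
Olfr544: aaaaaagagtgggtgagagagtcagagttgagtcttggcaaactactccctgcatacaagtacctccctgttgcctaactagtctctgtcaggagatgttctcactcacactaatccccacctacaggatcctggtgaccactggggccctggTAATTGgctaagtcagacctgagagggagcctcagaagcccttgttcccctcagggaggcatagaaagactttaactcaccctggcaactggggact

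Olfr659 held 4 matches to TAATTA, 3 of which overlapped each other, Olfr641 and Olfr544 held 1 match to TAATTG each, and Olfr550 held 1 match to the EBF palindrome (CCCAAGGG). RefSeq windows were found for 101 of the 118 members. TAATTA was present in 14.9% of these windows, in 18.7% of class II windows and in 5.65% of the windows of all genes. TAATTG was present in 20.8%, 23.0% and 8.3%, respectively, and CCCNNGGG in 2.97%, 2.77% and 13.4%. The members' windows thus held both homeodomain motifs more often than the windows of all genes, as the class II windows did. For Olfr550, Olfr659 and Olfr641 the RefSeq start lies inside the longer GENCODE gene model, so other start sites are annotated upstream of these windows.

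The level of a member in the control mice differed widely within the cluster. In the Kir2.1 experiment the control means ran from 0.338 to 442 with a median of 74.9, and in the PEA experiment from 0 to 161 with a median of 29.2. The 10 highest members held 26% and 25.7% of the members' sum. Per kb of annotated exon length, Olfr672 had the highest level in both experiments, with 127 ± 25.5 per kb (SD, n = 3) in the Kir2.1 controls, 5.35 times the median member, and 79.2 ± 16.7 per kb (SD, n = 4) in the PEA controls, 7.48 times the median member. In the Kir2.1 controls it was followed by Olfr598 (127 ± 22.4), Olfr665 (99.7 ± 31.7), Olfr544 (97.4 ± 22.4), Olfr549 (93.8 ± 17.8) and Olfr689 (76.0 ± 10.9), and Olfr672 and Olfr598 could not be told apart. In the PEA controls the order after Olfr672 was Olfr598 (54.4 ± 18.1), Olfr665 (49.2 ± 7.24), Olfr640 (33.0 ± 11.7), Olfr655 (30.9 ± 9.06) and Olfr570 (30.6 ± 11.3). In both experiments, the ranges over the control mice of neighbours in these orders overlapped. Olfr672, Olfr598 and Olfr665 were among the 6 highest members of both experiments.

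These orders rest on the annotated exon length. Per kb of coding length, Olfr689 was highest in the Kir2.1 controls and Olfr665 in the PEA controls, and 3 and 4 of the 6 members highest per exon length stayed among the 6 highest. Across the members, the Pearson correlation of the log2 control level between the experiments was 0.57. Within an experiment, the log2 values of the members correlated at 0.875 to 0.934 between pairs of mice of the same group in the Kir2.1 experiment and at 0.555 to 0.854 in the PEA experiment. These correlations are across genes, which are not independent.

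Class I receptor RNA was mostly lower in Kir2.1 mice than in their controls, but no single member passed the test. Of 109 members tested, 92 were lower (84.4%, beside 48.8% of all 19807 genes tested) and 17 were higher. The median log2 fold change of the members was -0.33 (quartiles -0.55 and -0.14, range -1.26 to 0.71), whereas the median of all genes was 0.01. The count of members called at an adjusted p under 0.05 was 0 (limma, lowest adjusted p = 0.172 for Olfr639), beside 0.353% of all genes. At an unadjusted p under 0.05, 23 members were lower (21.1%, beside 6.2% of all genes) and 0 were higher (beside 4.93%). The groups did not overlap for 24 members that were lower in Kir2.1 mice (22.0%, beside 9.04% of all genes) and for 1 that was higher, Olfr641 (0.917%, beside 7.26%). In bulk tissue, fewer neurons of a type and less RNA per neuron cannot be told apart.

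**Figure D1:**
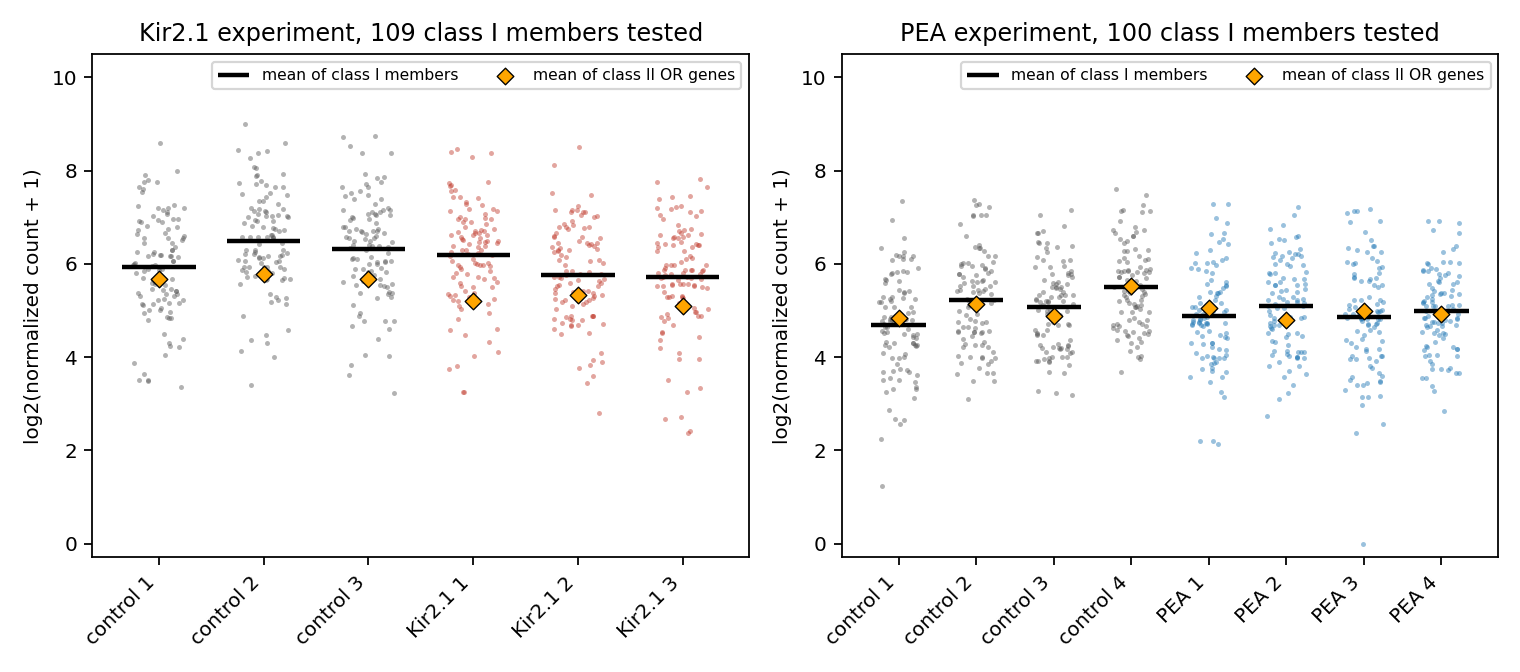
Normalized counts, as log2(value + 1), of the class I members tested in each mouse of the Kir2.1 experiment (left) and the PEA experiment (right). Each point is 1 member, black lines are the members' means and orange diamonds the means of the class II OR genes. The class I means of the control and Kir2.1 mice overlap, whereas the class II means of the 3 Kir2.1 mice lie below those of the 3 controls.

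By mouse, the members' mean log2 value was 5.93, 6.50 and 6.32 in the 3 control mice and 6.19, 5.77 and 5.72 in the 3 Kir2.1 mice. The groups overlapped, because control mouse 1 lay below Kir2.1 mouse 1. The corresponding class II means were 5.68, 5.79 and 5.67 in the control mice and 5.21, 5.34 and 5.09 in the Kir2.1 mice, without overlap. Class II genes had a median log2 fold change of -0.48, with 85.1% of 892 genes tested lower and 26.5% lower at an unadjusted p under 0.05. The class I mean minus the class II mean was 0.25, 0.70 and 0.66 in the control mice and 0.98, 0.43 and 0.64 in the Kir2.1 mice, so the relation of the classes did not separate the groups.

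Control mouse 1, whose class I mean was the lowest of the controls, also stood apart in the RNA of the vomeronasal organ, a separate sensory organ of the nose. The mean log2 value of vomeronasal receptor genes was 6.06 in this mouse and between 2.42 and 2.51 in the other 5. Without it, the median of the members was -0.52 and 30 were at an unadjusted p under 0.05. Without control mouse 2, whose members' mean was the highest, the median was -0.24 and 8 members were at an unadjusted p under 0.05. The number of members at an unadjusted p under 0.05 was also 14 without control mouse 3, 15 without Kir2.1 mouse 2 and 11 without Kir2.1 mouse 3. The share of all genes at that limit in these fits is not given, so the counts are not set against a background. Markers of other tissues differed between the groups too. In Kir2.1 mice all 5 blood markers were higher (each with an unadjusted p under 0.05), with sums from 11005 to 19896 in the controls and from 20242 to 33607 in the Kir2.1 mice and none at 0 in all mice, and 3 of 6 connective tissue and bone markers (Acan, Col2a1 and Col3a1) were higher at that limit, with sums from 61962 to 181420 and from 121451 to 162236. Of 5 respiratory ciliated cell markers 2 were higher at that limit, with sums from 14300 to 17359 in the controls and from 17776 to 27410 in the Kir2.1 mice. The sums of 7 macrophage and neutrophil markers, 0 of which passed that limit, ran from 2269 to 2674 and from 2688 to 3042. No marker of these lists was at 0 in all mice. The part of these tissues in the members' values was not tested.

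The members' direction also depends on what is held constant between mice. With each mouse scaled to its class II genes, the median of the members was 0.17 and that of all genes 0.51. Scaled to 12 markers of mature sensory neurons, the medians were 0.08 and 0.42, and scaled to the 2 dorsal zone markers Nqo1 and Acsm4 they were -0.07 and 0.26. The members that were lower numbered 37, 45 and 66 of 109 under these 3 scalings, beside 92 without them. Under the first and second of these scalings 9 and 3 members were called higher (8.26% and 2.75%), beside 57.6% and 50.4% of all genes called in either direction, and 0 under the third. The 3 called under both the class II and the mature neuron scaling were Olfr641, Olfr597 and Olfr606. A scaling moves all genes of a mouse together, and the median of the members minus that of all genes was -0.34 under each scaling.

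The largest differences were found on both sides of the globin genes. Olfr692, a receptor known to be expressed also in the vomeronasal organ, had the largest negative fold change. Its values were 49.7, 68.7 and 48.6 in the control mice and 38.2, 13.1 and 21.9 in the Kir2.1 mice (which is a log2 fold change of -1.26 with an SE of 0.40, adjusted p = 0.301 by limma). All 3 Kir2.1 mice lay below all 3 controls, and the control mouse with the highest vomeronasal signal was not the highest for Olfr692. Trpc2, 1 of 4 vomeronasal neuron markers, was at 282.6 to 527.5 in the controls and 145.1 to 225 in the Kir2.1 mice. Its log2 fold change was -1.16 with an SE of 0.26, and the median of the 4 markers was -0.59. The sums of these markers overlapped (18356 to 23499 and 16105 to 23324). The part of vomeronasal RNA in the values of Olfr692 was not tested. Olfr639 had the smallest p, with values of 253, 270.2 and 369 against 189.5, 142 and 168 (a log2 fold change of -0.82 with an SE of 0.19). Olfr639 shared 43.57% of its 31-base words with other gene models, and its own model overlaps that of Olfr643 on the same strand.

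Olfr544, a receptor of azelaic acid that is also found outside the nose, was measured at 239, 383 and 334 in the control mice and at 212.5, 178 and 174.5 in the Kir2.1 mice. Every Kir2.1 mouse was below every control (a log2 fold change of -0.73 with an SE of 0.19, adjusted p = 0.222 by limma). Olfr544 shares 16.11% of its 31-base words with other genes, and more with its neighbour Olfr545 than with any other. Olfr545 was measured at 81.3, 133 and 227 against 123, 110 and 97.2, so its groups overlapped (a log2 fold change of -0.30 with an SE of 0.35). Olfr665, among the 3 most abundant members per kb, was at 216, 340.1 and 422 in the controls and at 192, 109 and 144 in the Kir2.1 mice (which is a log2 fold change of -1.11 with an SE of 0.29). For Olfr571 the mice of a group lay close together, at 145, 139 and 154 against 90.6, 106.5 and 83.8 (a log2 fold change of -0.64 with an SE of 0.16). Olfr652 was at 74.9, 128 and 146 against 58.6, 63.5 and 37.4 (a log2 fold change of -1.10 with an SE of 0.32). The groups did not overlap for any of these members but Olfr545, and adjusted p-values by limma were 0.200 to 0.269 for Olfr665, Olfr571 and Olfr652. With 3 mice in each group, an exact permutation test of a single gene cannot give a p below 0.1.

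Members that ran the other way were few. Olfr641, whose model overlaps that of Olfr643 on the opposite strand, had values of 19.9, 36.3 and 46.2 in the control mice and 51.3, 55.5 and 53.4 in the Kir2.1 mice, 1.56 times higher on average (a log2 fold change of 0.71 with an SE of 0.33, adjusted p = 0.502 by limma). The Kir2.1 mice were close to each other, whereas the controls varied more than 2-fold, and without control mouse 1, the lowest, the log2 fold change was 0.37. Olfr597 was at 40.2, 34.4 and 29.9 against 85.5, 35.5 and 57.6, so that 1 Kir2.1 mouse lay within the range of the controls (a log2 fold change of 0.68 with an SE of 0.34). Olfr606 and Olfr570 had log2 fold changes of 0.37 (SE 0.27) and 0.27 (SE 0.27), also with overlapping groups, which were 0.13 and 0.08 without control mouse 1. Of other members with a known odorant or known expression elsewhere, Olfr558 differed by -0.14 (SE 0.28) and Olfr690 by -0.32 (SE 0.18). Olfr672, the most abundant member per kb, was at 146, 213 and 209.6 against 173, 137 and 128.5 (a log2 fold change of -0.36 with an SE of 0.20).

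Position within the cluster was recorded for every member. On the proximal side 51 of 61 members tested were lower, with a median log2 fold change of -0.33, and on the distal side 41 of 48, with a median of -0.36. At an unadjusted p under 0.05, 7 of the proximal members (11.5%) and 16 of the distal members (33.3%) were lower, beside 6.2% of all genes and 26.5% of class II genes. This difference between the sides was not tested. Members with at most 10% of their 31-base words in another gene numbered 74 among those tested and had a median of -0.32.

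**Figure D2:**
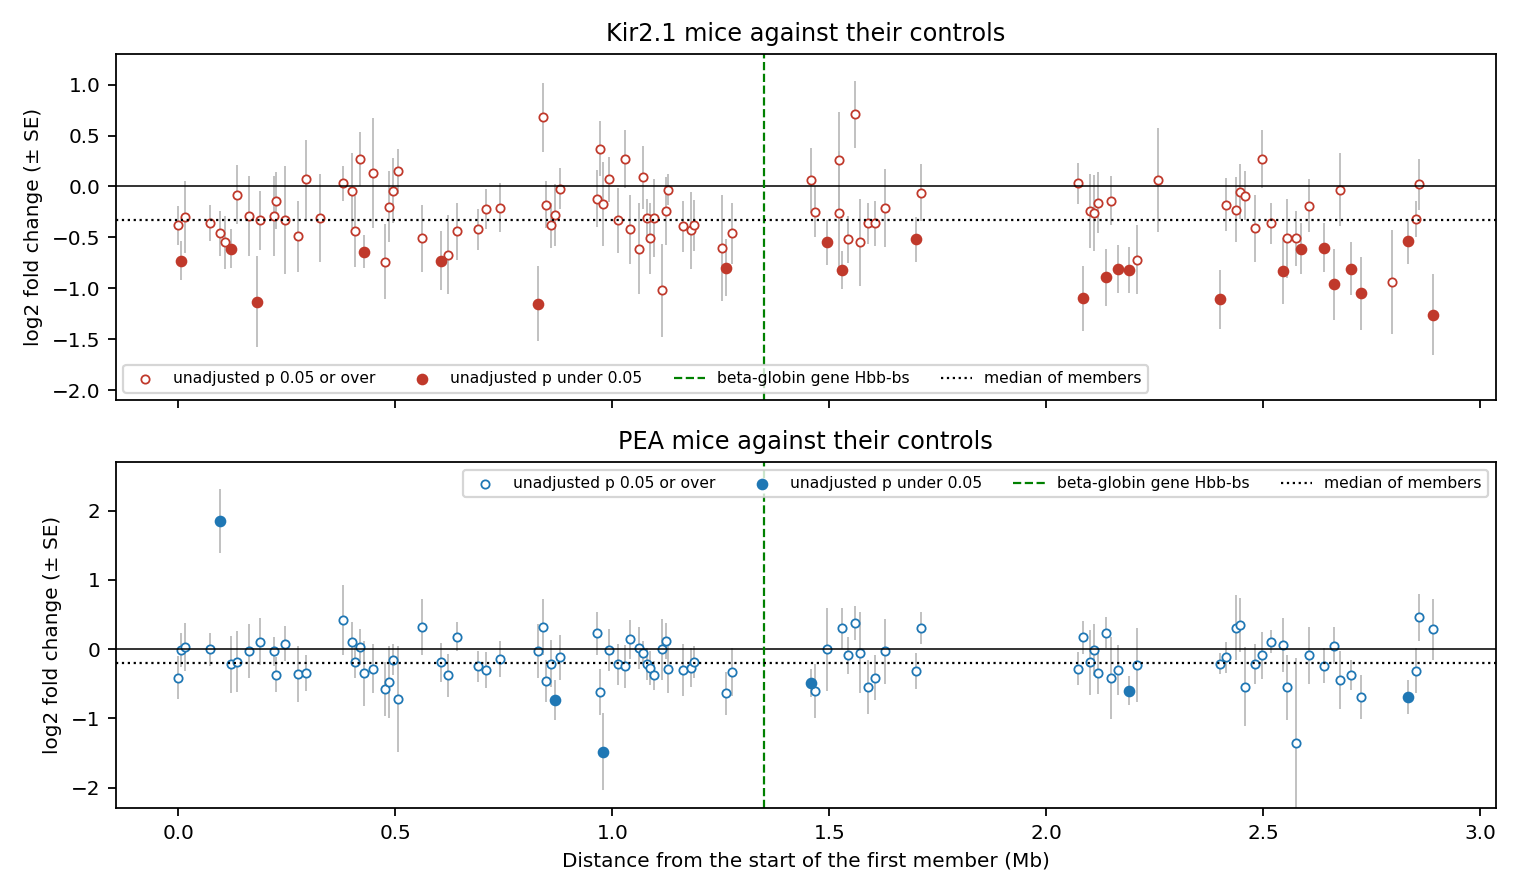
log2 fold change of each class I member tested (point, with its SE) against its distance in Mb from the start of the first member, for the Kir2.1 experiment (top) and the PEA experiment (bottom). Filled points have an unadjusted limma p under 0.05, the dashed line is Hbb-bs and the dotted line the members' median. In the Kir2.1 experiment the filled points are all below 0 and lie mostly to the right of Hbb-bs (16 of 23), a difference that was not tested. In the PEA experiment Olfr550 stands alone at 1.85.

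The 9 members not tested in the Kir2.1 experiment (Olfr547, Olfr574, Olfr583, Olfr589, Olfr593, Olfr603, Olfr631, Olfr663 and Olfr688) had no value above 17.9 in any mouse. All 9 were also below the limit in the PEA experiment.

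The zonal markers put the members beside other RNA of the dorsal epithelium. Nqo1, which marks the dorsal zone where most class I neurons lie, was at 3209, 4180 and 4073 in the control mice and at 3180, 2754 and 2748 in the Kir2.1 mice (which is a log2 fold change of -0.39 with an SE of 0.12, adjusted p = 0.285 by limma). The members' sum divided by Nqo1 was 2.68, 3.01 and 2.78 in the controls and 3.18, 2.73 and 2.68 in the Kir2.1 mice, so the groups overlapped. Divided by Omp, the marker of mature sensory neurons, the sum was 0.27, 0.395 and 0.313 against 0.481, 0.35 and 0.314, again with overlap. Acsm4, the other dorsal marker, differed by -0.12 (SE 0.10), and the ventral markers Ncam2, Nrp2 and Nfix by -0.41, 0.05 and 0.58 (SE 0.16, 0.10 and 0.29).

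**Figure D3:**
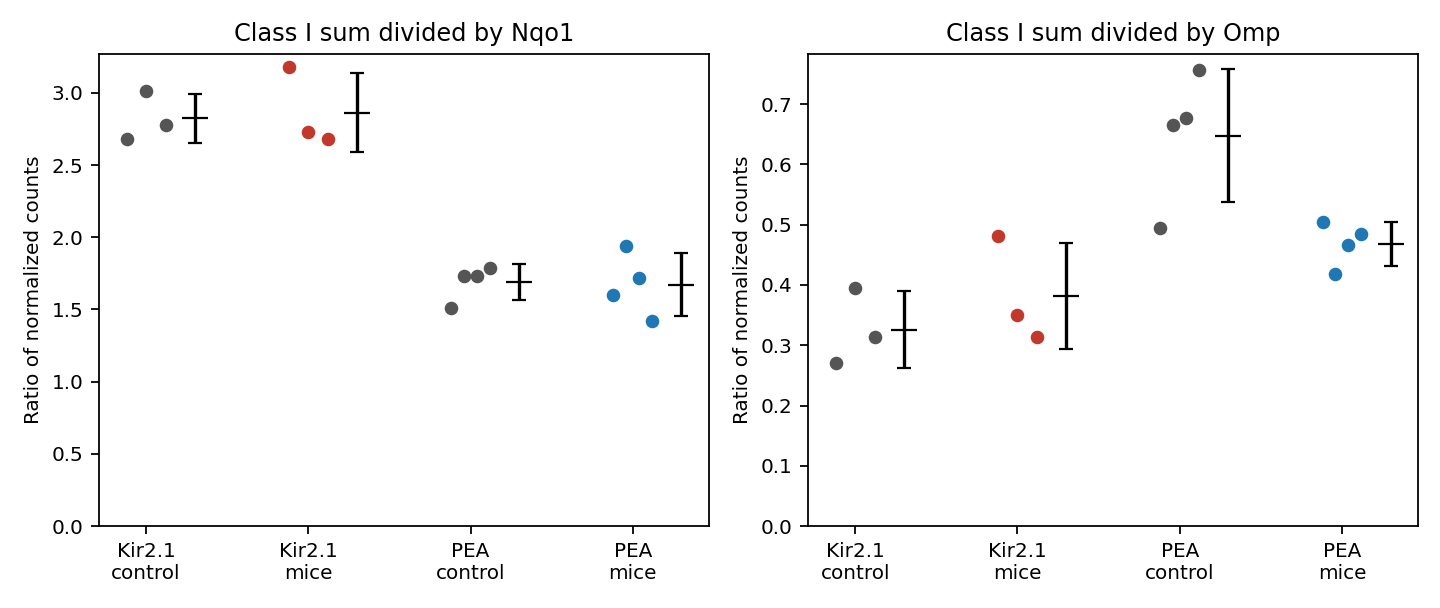
Sum of the normalized counts of all 118 class I members in each mouse divided by Nqo1, a dorsal zone gene (left), and by Omp, a gene of mature sensory neurons (right), as points with the group mean and SD beside them. The ratio to Nqo1 overlaps between the groups of both experiments, and the ratio to Omp lies between 0.27 and 0.481 in all mice of the Kir2.1 experiment.

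The genes by which any OR signals were lower in Kir2.1 mice along with the receptors. All 12 genes of the signalling list were lower, with a median log2 fold change of -0.39, 10 of them at an unadjusted p under 0.05. Pde1c, a phosphodiesterase that breaks down cyclic nucleotides in the cilia, fell from 4351 ± 154 to 2772 ± 168 (SD, n = 3; a log2 fold change of -0.65 with an SE of 0.07, adjusted p = 0.0223 by limma), and Omp fell by 0.60 on the log2 scale (SE 0.08, adjusted p = 0.0466 by limma). Of 21 genes of OR choice and trafficking, 0 were called and 14 were lower, with a median of -0.07. The 4 that were lower at an unadjusted p under 0.05 were the trafficking genes Rtp1 (a log2 fold change of -0.38 with an SE of 0.07), Rtp2 (-0.45, SE 0.07) and Reep1 (-0.29, SE 0.09), and Ric8b (-0.31, SE 0.09), which encodes an exchange factor for the G protein. The factors that bind OR enhancers, Lhx2, Ldb1 and Ebf1, differed by -0.07, 0.03 and -0.13 (SE 0.10, 0.08 and 0.14). Sums of the 12 mature neuron markers were 148471 to 164058 in the control mice and 109728 to 123615 in the Kir2.1 mice, none at 0. All of these markers but Stoml3 are also on the signalling or the choice and trafficking list, so their sums are not a separate observation. Sums of 8 immature neuron markers were 100216 to 103287 in the control mice and 88143 to 113719 in the Kir2.1 mice. The part of the mature neuron RNA in the members' values was not tested.

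In PEA-exposed mice, most class I receptors were slightly lower than in their controls on the scale of the authors, no member passed the test, and Olfr550 had the largest difference. Of 100 members tested, 73 were lower (beside 53.5% of all 17322 genes tested) and 27 higher, with a median log2 fold change of -0.20 (quartiles -0.37 and 0.02, range -1.48 to 1.85) beside -0.02 for all genes. The count of members called was 0 (limma, lowest adjusted p = 0.130 for Olfr550), beside 0.179% of all genes. At an unadjusted p under 0.05, 5 were lower (5.0%, beside 6.04% of all genes) and 1 was higher (1.0%, beside 8.93%). The groups did not overlap for 2 lower members, Olfr659 and Olfr632 (2.0%, beside 3.86%), and for 1 higher member, Olfr550 (1.0%, beside 5.46%). The members' shares were thus near or under the background. With each mouse scaled to class II genes, 55 of 100 members were lower with a median of -0.05, beside 0.13 for all genes. Scaled to mature neuron markers, 65 were lower with a median of -0.17 (0.01 for all genes). Scaled to dorsal zone markers, 62 were lower with a median of -0.14 (0.04 for all genes). The median of the members minus that of all genes was -0.18 under each scaling.

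Olfr550 (ENSMUSG00000073975; GRCm38 chromosome 7, 102571442 to 102583011, plus strand) is a protein-coding gene with a coding length of 948 bases, on the proximal side of the cluster. Its values were 59.2, 17.7, 14.1 and 46.7 in the 4 control mice and 156, 93.8, 139 and 65.2 in the 4 PEA-exposed mice. All exposed mice lay above all controls, although the lowest exposed mouse was close to the highest control. The mean was 3.3 times higher (34.4 ± 22.1 to 113 ± 41.6, SD, n = 4; a log2 fold change of 1.85 with an SE of 0.46, unadjusted p = 0.00228 and adjusted p = 0.130 by limma). The two-sided exact permutation p for this gene alone was 0.0286, the smallest that 4 against 4 mice allow. The study names this gene, so the single-gene p is not independent of that choice. Olfr550 shares 0.45% of its 31-base words with any other gene, and no gene model overlaps it. With each mouse left out in turn its log2 fold change was between 1.52 and 2.19.

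The neighbours of Olfr550 on the chromosome overlapped between the groups. Olfr549, upstream, was at 49.4, 53.7, 46.4 and 55.8 in the control mice and at 67.1, 61.7, 31.4 and 52.5 in the exposed mice (a log2 fold change of 0.00 with an SE of 0.24). Olfr552, downstream, was at 18.8, 10.2, 15.9 and 38.5 against 16.1, 24.4, 12.6 and 12.7 (a log2 fold change of -0.22 with an SE of 0.41). Olfr547 and Olfr551 were not tested, with control means of 3.54 ± 1.67 and 8.66 ± 4.03 and exposed means of 2.95 ± 1.57 and 6.81 ± 4.47 (SD, n = 4). Olfr550 ran the other way in the Kir2.1 experiment, with 150.5, 266 and 176 in the control mice and 128, 150.0 and 140 in the Kir2.1 mice. These groups were apart only by the difference between 150.5 and 150.0 (a log2 fold change of -0.46 with an SE of 0.22, adjusted p = 0.517 by limma), and the direction turned to 0.04 when the mice were scaled to class II genes. Olfr549, Olfr551 and Olfr552 had log2 fold changes of -0.36, -0.55 and -0.61 there (SE 0.18, 0.26 and 0.19), and Olfr547 was not tested.

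**Figure D4:**
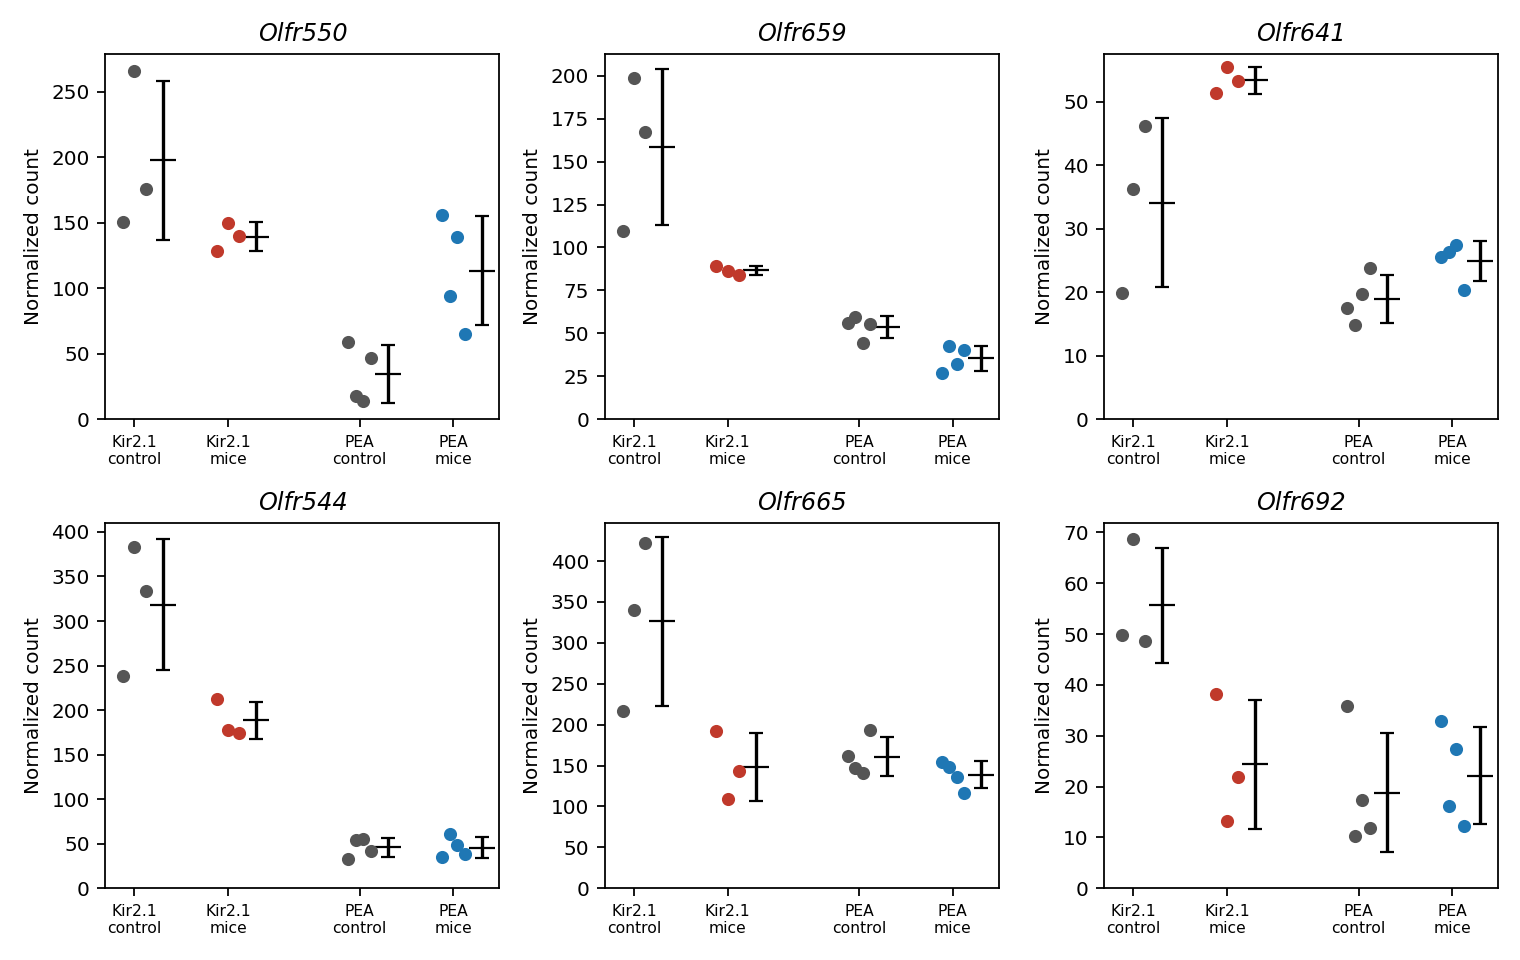
Normalized counts of 6 class I members in each mouse (points) with the mean and SD of each group (black), in the 4 groups of both experiments. Olfr550 is higher in all 4 PEA-exposed mice than in the 4 controls, Olfr659 is lower in the Kir2.1 and in the PEA-exposed mice than in their controls without overlap, and Olfr544, Olfr665 and Olfr692 are separated in the Kir2.1 experiment.

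Olfr659, on the distal side of the cluster (ENSMUSG00000073922; 104666753 to 104674948, plus strand), was the member that was lower without overlap in both experiments. In the PEA experiment it was at 55.7, 59.2, 44.5 and 55.3 in the control mice and at 26.8, 42.7, 31.9 and 40.05 in the exposed mice (a log2 fold change of -0.60 with an SE of 0.21, adjusted p = 0.231 by limma). Against this, the Kir2.1 experiment gave 109.7, 199 and 167 in the control mice and 89.3, 86.5 and 84.0 in the Kir2.1 mice (which is a log2 fold change of -0.82 with an SE of 0.23, adjusted p = 0.252 by limma). The treated mean was 0.66 and 0.55 of the control mean. Of all genes tested, 3.86% were lower without overlap in the PEA experiment and 9.04% in the Kir2.1 experiment. The share of all genes that were so in both experiments is not given, so this 1 member is not set against a background. Without the 3 PEA libraries of highest vomeronasal signal the log2 fold change of Olfr659 there was -0.38, and without Kir2.1 control mouse 1 it was -1.07 in the Kir2.1 experiment. The gene shares 0.89% of its 31-base words with other genes, most of all with its neighbour Olfr658.

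Other members with low p in the PEA experiment were less even between mice. Olfr607 had the largest negative fold change, with 28.2, 42.9, 36.1 and 51.7 in the control mice and 7.87, 33.3, 4.16 and 25.5 in the exposed mice (a log2 fold change of -1.48 with an SE of 0.56). Exposed mice 1 and 3 were far below the controls, whereas exposed mouse 2 lay within their range. Olfr689 was at 122.5, 132, 80.2 and 109 against 47.8, 72.6, 102 and 56.9 (a log2 fold change of -0.69 with an SE of 0.25), with 1 exposed mouse above the lowest control. Without the 3 libraries of highest vomeronasal signal (PEA control mice 1 and 2 and exposed mouse 1), the log2 fold change of Olfr689 was -0.32. Olfr632 was at 40.5, 36.7, 46.7 and 47.5 against 34.5, 30.98, 30.4 and 24.9, without overlap (a log2 fold change of -0.49 with an SE of 0.20). Olfr600 and Olfr686 had log2 fold changes of -0.73 (SE 0.29) and -0.69 (SE 0.32). On the higher side after Olfr550 came Olfr641 (0.38, SE 0.25), Olfr691 (0.46, SE 0.34) and Olfr649 (0.31, SE 0.23), each with overlapping groups. Without the same 3 libraries these were 0.17, 0.26 and 0.29. Adjusted p-values by limma were 0.240 or more for all members named here.

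None of the members with known odorants or expression elsewhere had groups without overlap or an unadjusted p under 0.05. Olfr544 was at 32.8, 54.6, 54.8 and 41.5 in the control mice and at 34.8, 61.4, 48.6 and 38.1 in the exposed mice (a log2 fold change of -0.01 with an SE of 0.25). Olfr545, Olfr558 and Olfr690 differed by 0.03, -0.37 and -0.31 (SE 0.35, 0.25 and 0.32). Olfr692 was at 35.8, 10.2, 17.3 and 11.9 against 32.8, 16.2, 27.4 and 12.2 (a log2 fold change of 0.29 with an SE of 0.44). Its highest values were in control mouse 1 and exposed mouse 1, which were also the highest in vomeronasal receptor RNA of their groups (mean log2 5.76 and 5.32).

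By mouse, the members' mean log2 value was 4.69, 5.23, 5.08 and 5.51 in the control mice and 4.89, 5.10, 4.86 and 4.99 in the exposed mice. The exposed mice lay within the range of the controls, whose lowest and highest mouse bounded all 8. Vomeronasal receptor RNA was uneven between these libraries, with mean log2 values of 5.76, 4.69, 3.92 and 1.44 in the control mice and 5.32, 1.71, 1.45 and 1.43 in the exposed mice. The control mouse with the most vomeronasal RNA had the lowest members' mean and the one with the least had the highest. Control mouse 2 was above control mouse 3 in both values. Among the exposed mice, mouse 3, at 1.45, had the lowest members' mean, and mouse 2, at 1.71, the highest. The part of vomeronasal RNA in the members' values was not tested. With the vomeronasal signal as a covariate the median of the members was -0.33 with 12 members at an unadjusted p under 0.05. Without the 3 libraries of highest vomeronasal signal (PEA control mice 1 and 2 and exposed mouse 1) the median was -0.31. Without control mouse 1 alone it was -0.37, with 21 members at an unadjusted p under 0.05, and without control mouse 4 it was -0.05. Without exposed mouse 3 the count was 3 members. For these counts, too, the share of all genes in the same fit is not given. Markers of other cell types differed as well. The mean log2 value of the tuft-like and ionocyte-like microvillar markers was 5.42 to 5.69 in the control mice and 5.77 to 6.18 in the exposed mice, although their sums overlapped (636 to 832 and 760 to 823), and 2 of 5 tested were higher at an unadjusted p under 0.05. The lists of sustentacular cells (7 markers), horizontal basal cells (5) and immature neurons (8) each had 2 markers higher at that limit, with overlapping sums of 54061 to 77103 and 68123 to 74244, of 971 to 1820 and 1391 to 1725, and of 21247 to 25788 and 21607 to 25427. None of these markers was at 0 in all mice, and their part in the members' values was not tested.

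Class II genes had a median of -0.15 in this experiment, with 66.9% of 834 genes tested lower. The class I mean minus the class II mean was -0.14, 0.10, 0.19 and -0.01 in the control mice and -0.17, 0.30, -0.12 and 0.08 in the exposed mice. The members' sum divided by Nqo1 was 1.51, 1.73, 1.73 and 1.79 against 1.60, 1.94, 1.72 and 1.42. Divided by Omp it was 0.494, 0.665, 0.677 and 0.756 against 0.505, 0.418, 0.466 and 0.484, where 1 exposed mouse lay above the lowest control. Ncam2, a marker of the ventral zone, was at 1065, 1514, 1361 and 1826 against 983, 926, 972 and 862 (a log2 fold change of -0.60 with an SE of 0.15). The other ventral markers, Nrp2 and Nfix, differed by -0.10 and 0.31 (SE 0.11 and 0.16), with overlapping groups. Of 12 signalling genes 0 were called and 4 were lower (Gnal, Cnga2, Cngb1 and Pde1c; median 0.02), with Gnal lower (a log2 fold change of -0.37 with an SE of 0.11) and Omp higher (0.31, SE 0.11) at an unadjusted p under 0.05. Of 21 choice and trafficking genes 0 were called (median -0.05), Cbx5, Emx2 and Ric8b were lower at that limit (-0.29, -0.41 and -0.25) and Ehmt2 and Ldb1 higher (0.42 and 0.36). On the proximal side of the globin genes the members' median was -0.19 (57 tested) and on the distal side -0.21 (43 tested).

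The 18 members not tested in the PEA experiment had no value above 15.0 in any mouse, and 9 of them were tested in the Kir2.1 experiment.

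**Figure D5:**
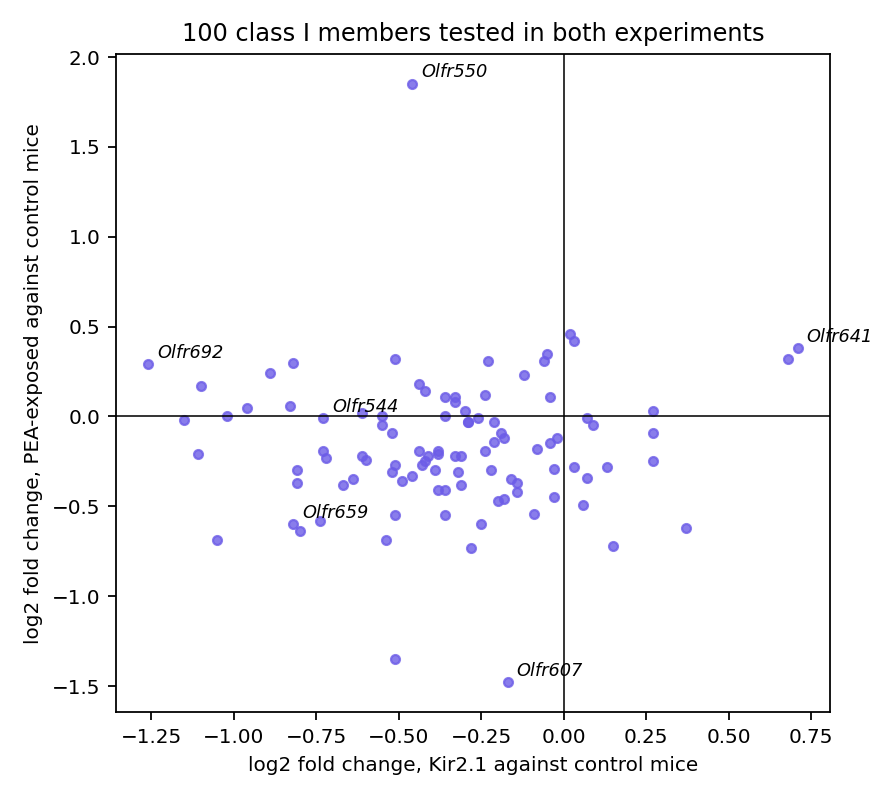
log2 fold change of each of the 100 class I members tested in both experiments, Kir2.1 mice against controls on the horizontal axis and PEA-exposed mice against controls on the vertical axis. Most points lie at lower left (63 members), and a member's place on one axis does not follow its place on the other.

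The 2 experiments had no mouse in common, and the members' fold changes were set side by side. Of 100 members tested in both, 63 were lower in both, 5 were higher in both (Olfr566, Olfr570, Olfr597, Olfr641 and Olfr691), 22 were lower in Kir2.1 mice and higher in PEA-exposed mice, and 10 were the reverse. The fold changes correlated at a Pearson r of 0.03 and a Spearman rho of 0.02 across these genes, which are not independent. For the 817 class II genes tested in both, the Pearson r was -0.11. Both medians were below 0, and within the cluster the size of a member's fold change in one experiment did not order its fold change in the other.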

How the data were processed

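Olfactory epithelium RNA was sequenced from 14 mice in 2 experiments, poly-A selected and unstranded for Kir2.1, ribosomal-RNA-depleted and stranded for PEA. The authors estimated transcript abundance with Salmon 1.3.0, using a reverse-stranded setting for all libraries, summed it per gene and scaled it with DESeq2 1.30.0. The deposited values are this normalized signal per gene. They are not whole reads, so count tests were not run, and the depth is unknown.

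The 2 experiments were fitted separately in limma 3.58.1 under R 4.3.3 (mean-variance trend) on log2(value + 1) for genes with a mean of at least 10, with Benjamini-Hochberg adjustment over all genes tested (threshold 0.05). Exact two-sided permutation tests were used for single genes. Python 3.11.15 with pandas 2.3.3, numpy 2.4.6, scipy 1.17.1 and matplotlib 3.10.9 did the rest. The fit was tested on simulated data. Of 200 genes changed by 1 on the log2 scale, 52.5% were recovered with the spreads of the Kir2.1 experiment and 65.5% with those of the PEA experiment. These genes were drawn from all genes tested, whose median SE was 0.15 and 0.18, beside 0.29 and 0.31 for the members. Positions and lengths came from GENCODE vM21, in which all 118 members were found, and upstream sequences from RefSeq. Coding length was read from the coding exons of the annotation. Class II left out the 9 OR genes of the chromosome 7 cluster that carry other numbers.

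Members, gene lists and tests were chosen with earlier results of these data known. Named were, per experiment, the 6 lower and 4 higher members with the smallest p and the 6 most abundant per kb, plus members separated in both experiments, members with known odorants or expression elsewhere, Olfr550 with its neighbours, and the members of small counts. Alternatives were other pseudocounts, filters, scalings, covariates, no trend, a replicate block and each mouse left out. After the values were seen, scaling to the dorsal markers, leaving out the libraries of highest vomeronasal signal, and a median over the members with few shared 31-base words were added.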

Additional observations from a re-analysis of the deposited data

Results flagged for a closer look

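Of 64 groups of 4 mice examined, 2 held a mouse far from the other 3 of its group, where chance gives about 1 in 20. PEA-exposed mouse 4 had a normalized count of 27.11 for Olfr606, whereas the other exposed mice had 13.07 to 14.68. PEA-exposed mouse 1 had a normalized count of 32.72 for Olfr558, whereas the other exposed mice had 27.45 to 27.7.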

How the results depend on the processing

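No member was called under any alternative in the PEA experiment, and in the Kir2.1 experiment members were called under 2 scalings, 9 with the mice scaled to class II OR genes and 3 with them scaled to mature neuron markers, where the median of the members reversed to 0.17 and 0.08 and Olfr550 reversed to 0.04 (class II). These scalings raised the median of all genes too. The number of Kir2.1 members at an unadjusted p under 0.05, 23 as reported, turned direction under these 2 scalings, to 11 (0 lower, 11 higher) and 9 (1 lower, 8 higher), and was 13 with scaling to the dorsal markers (11 lower, 2 higher), where the median was -0.07. In the PEA experiment the median was -0.05 with scaling to class II genes, where that of all genes was 0.13. The number, 6 as reported, was 2 with a mean of at least 50, 10 without a trend, 2 with scaling to class II genes and 12 with the vomeronasal covariate. The cause was not tested, except that a mean of at least 50 tests fewer genes. Leaving out 1 mouse at a time, the number was 8 to 30 (Kir2.1) and 3 to 21 (PEA), and the median of the members -0.52 to -0.24 and -0.37 to -0.05. The share of all genes at an unadjusted p under 0.05 under these alternatives is not given beside the numbers. Of 195 recomputed values of 11 named members in the Kir2.1 experiment, 187 kept their direction and side of the threshold, 7 passed it under the 2 scalings and 1 reversed, and all 202 values of 10 named members in the PEA experiment kept both, although the size of several moved by over 1.5 times.

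With the replicate number as a block, 0 members were called in either experiment, the medians were -0.33 and -0.20, and 16 and 7 members were at an unadjusted p under 0.05. The share of all genes at that limit in these fits is not given, so the 2 counts are not set against a background. The numbers were not taken to pair the mice, because nothing in the records says that they do. The study describes littermates of the Kir2.1 pups, without saying which mice shared a litter. Same-numbered mice had deviations that correlated at -0.06, -0.01 and 0.16 (Kir2.1) and 0.13, -0.02, -0.05 and 0.10 (PEA). Of the mice, 2 of 6 and 4 of 8 correlated best with their own number. With so few mice these values cannot show whether the mice were paired. PEA control mouse 4 has another number in its library name.

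The depth of the libraries is unknown, so the counting error of low members cannot be given. Groups of 3 and 4 mice leave a median SE of 0.29 and 0.31 for a member's log2 fold change, and differences within that error were not detectable.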

Other observations

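The 9 OR genes that lie in the same cluster under other numbers were all tested in both experiments. In the Kir2.1 experiment 7 of the 9 were lower (median log2 fold change -0.18) and 2 at an unadjusted p under 0.05, and in the PEA experiment 8 of the 9 were lower (median -0.40), again 2 at that limit. Olfr78, a class I receptor known to respond to short-chain carboxylic acids and to be expressed in the carotid body, was at 137 ± 51.4 in the Kir2.1 controls and 143 ± 22.9 in the Kir2.1 mice (SD, n = 3; a log2 fold change of 0.12 with an SE of 0.29), and at 73.6 in the PEA controls and 64.5 in the exposed mice (a log2 fold change of -0.21 with an SE of 0.24). Olfr33 was at 94.2 ± 24.8 in the Kir2.1 controls and 83.5 ± 18.3 in the Kir2.1 mice (SD, n = 3; a log2 fold change of -0.16 with an SE of 0.27).

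Members that share much sequence with other genes differed from the rest in the PEA experiment as a description. The 30 tested members with more than 10% of their 31-base words in another gene had a median log2 fold change of -0.05 and 17 were lower, whereas 56 of the 70 other members tested were lower, with a median of -0.23. In the Kir2.1 experiment the medians of the same kinds of members were -0.42 (35 tested) and -0.32 (74 tested). This difference was not tested.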
